A study of Mus musculus with 7 samples.

Results

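Fatty acid desaturases put a double bond into a fatty acyl or sphingoid chain, and 9 genes of this kind, named Scd1 to Scd4, Fads1 to Fads3, Fads6 and Degs1, were taken by symbol from the 55487 genes of the series. RNA was sequenced from inguinal white adipose tissue, a fat depot under the skin of the groin, of mice of the NOD/ShiLtJ strain, known for spontaneous autoimmune diabetes. The 4 imBAT libraries came from mice given CB-100, the fraction above 100 kDa of buffer conditioned by brown adipocytes, at 1.5 mg/kg body weight under the skin, and the 3 sham libraries from mice given KRBH buffer. Both groups are of the same strain, their blood glucose lay between 190 and 230 mg/dL, injections ran for 7 days, and tissue was taken 2 to 8 weeks afterwards, with the week of each mouse, its age and its sex not stated in the labels. Whether each library is a separate mouse is not stated either, so the p-values rest on a library-to-library spread that may be technical. In a fat pad taken whole, more cells of a type and more RNA per cell cannot be told apart.

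The stearoyl-CoA desaturases sit in the endoplasmic reticulum and place a double bond at carbon 9 of saturated acyl chains, which yields the palmitoleate and oleate that make up much of the triglyceride stored in fat cells. The Fads1 and Fads2 enzymes act further along on the dietary polyunsaturated fatty acids, and Degs1 completes the ceramide backbone. All of them draw electrons from NADH or NADPH through cytochrome b5 or a b5-like domain. SREBP-1c, the product of Srebf1, and the liver X receptors are known activators of Scd1 in liver and fat, and insulin raises Scd1 through the same route.

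Depth was 43360208 to 63650016 counts per imBAT library and 41025786 to 44983250 per sham library. Levels are TMM-scaled CPM, in which counts are scaled to a library total adjusted for composition, and a gene was called when the quasi-likelihood test of edgeR gave a Benjamini-Hochberg adjusted p under 0.05 over all 26393 genes tested. The libraries differed throughout: all 10 adipocyte markers rose in imBAT, with a summed level of 13592 to 31329 CPM against 2324 to 4812 CPM in sham. All 8 T cell markers fell, with a sum of 136 to 451 CPM in imBAT against 839 to 1041 CPM in sham, and all 7 B cell markers fell, with a sum of 176 to 480 CPM in imBAT against 1191.5 to 1378 CPM in sham. Markers of other cells rose too, beside 24.3% higher and 19.3% lower over all genes tested. All 6 tested mammary epithelial markers rose, with a sum of 629 to 1265 CPM in imBAT against 89.1 to 328 CPM in sham. So did 5 of 6 adipose progenitor markers, 4 of 7 macrophage markers and 3 of 6 Schwann cell markers, and none of these fell. Of 6 endothelial markers 5 rose and Pecam1 fell (log2 fold change -0.43, edgeR adjusted p = 0.0153). Of 5 tested brown adipocyte markers 4 rose (Cidea, Dio2, Otop1 and Cox8b), with a list median of 3.14 on the log2 scale. The remaining tested marker, Elovl3, was not called (log2 fold change -0.60, edgeR adjusted p = 0.701). Cidea did not separate the groups, since sham replicate 1 (5.26 CPM) exceeded imBAT replicate 4 (4.48 CPM). The list summed to 12.0 to 97.8 CPM in imBAT against 3.17 to 9.53 CPM in sham. Its peak came from imBAT replicate 3 alone, and the next imBAT library held 28.7 CPM. Ucp1, the defining gene of that list, was too low to test, with at most 2.04 CPM in any imBAT library and 0.241 CPM in any sham library. No marker of the adipocyte, T cell and B cell lists was at 0 in any library, and the part of cell content in the differences that follow was not tested.

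All 9 desaturase genes passed the expression filter, and 8 of them rose in imBAT, with Degs1 not called. Over all genes tested, 43.5% were called, made up of 24.3% that were higher and 19.3% that were lower in imBAT. The libraries of the groups did not overlap for 6 of the 9, all higher in imBAT, where 52.0% of all genes tested did not overlap and 26.8% did so with imBAT higher. The median log2 fold change of the 9 was 1.85, against -0.01 over all genes tested. Scd1, Scd3, Fads1, Fads3 and Fads6 were called in all 15 alternatives, Scd4 in 14, Fads2 in 11 and Scd2 in 5. The alternatives include the main fit read at an adjusted p under 0.10, which every called gene passes by construction, and the others are refits. The number called ranged from 6 to 8 when any single library was left out.

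**Figure D1:**
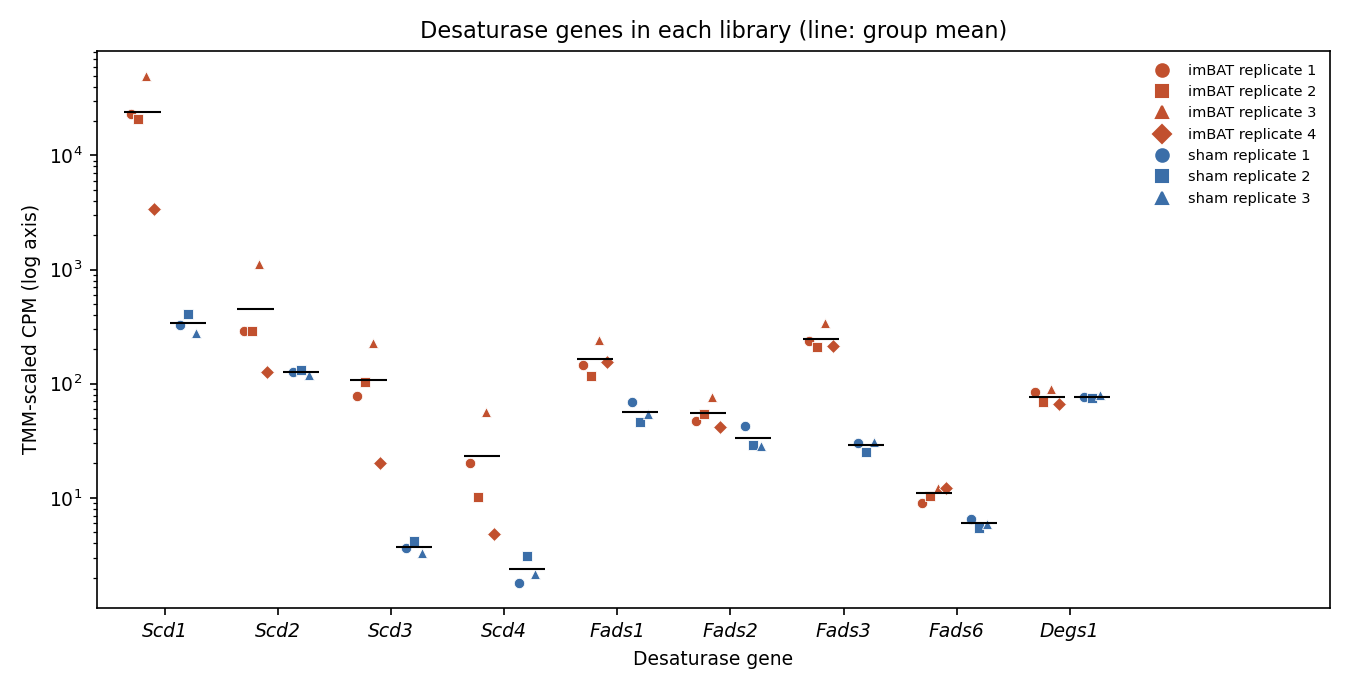
TMM-scaled CPM on a log axis for each desaturase gene, with 1 point per library (imBAT left and red, sham right and blue) and a line at the group mean. The 4 imBAT libraries spread widely for the Scd genes, from 3391 to 49576 CPM for Scd1, and lie close together for Fads3, Fads6 and Degs1.

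Scd1, the main stearoyl-CoA desaturase of adipose tissue and liver, was the most abundant and the most changed member. It stood at 22887, 20777, 49576 and 3391 CPM in imBAT replicates 1 to 4 and at 328, 410 and 280 CPM in sham replicates 1 to 3. The groups lay far apart, yet the highest imBAT library held 14.6 times the level of the lowest, against 1.46 times within sham. Scd1 alone took 0.326 to 4.01% of all counts in imBAT libraries and 0.0321 to 0.0481% in sham libraries. It rose 71.1-fold, a log2 fold change of 6.15 ± 0.88 (SE, edgeR adjusted p = 0.00178), with a 95% interval of 4.15 to 8.15, and this change ranked 18 from the top among all genes tested. It was 5.48 without imBAT replicate 3. The gene lies on the minus strand of chromosome 19 at 44394455 to 44407879 (GRCm38).

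Scd2, the form best known from brain and from early development, changed less and less evenly. It stood at 291, 288, 1111 and 127 CPM in imBAT replicates 1 to 4 and at 128, 132 and 118 CPM in sham replicates 1 to 3. Replicate 3 was far above the other imBAT libraries, and replicate 4 lay within the sham range. Scd2 rose 3.61-fold, or 1.85 ± 0.65 on the log2 scale (SE, edgeR adjusted p = 0.0471), with a 95% interval of 0.37 to 3.33. The call was lost in 10 of the 15 alternatives, among them the fit without imBAT replicate 3, where the log2 fold change was 0.85 (adjusted p = 0.0666, range over alternatives 0.0164 to 0.185).

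Scd3, which in mice is known from sebaceous and Harderian glands, was low in sham and higher in every imBAT library. It stood at 78.0, 104, 228 and 20.4 CPM in imBAT replicates 1 to 4 and at 3.65, 4.22 and 3.26 CPM in sham replicates 1 to 3. The groups did not overlap, and the order of the 4 imBAT libraries differed from that of Scd1 only in replicates 1 and 2. Scd3 rose 29.0-fold, or 4.86 ± 0.76 on the log2 scale (SE, edgeR adjusted p = 0.00235), and by 4.13 without imBAT replicate 3. Of 8 sebaceous gland markers 4 rose and 1 fell in imBAT, beside 24.3% higher and 19.3% lower over all genes tested. Their summed level was 259 to 495 CPM in imBAT and 130 to 176 CPM in sham. Plin2 and Soat1 made up most of that sum. Plin2 had 184 to 420 CPM in imBAT libraries and 53.1 to 95.8 CPM in sham libraries, and Soat1 was the marker that fell. Besides Plin2, the markers that rose were Mc5r, Mogat1 and Krt79 (edgeR adjusted p = 0.00221, 0.00096 and 0.00283). As group means, Mc5r stood at 14.7 CPM in imBAT and 3.88 CPM in sham. Mogat1 stood at 6.36 and 0.19 CPM, and Krt79 at 1.93 and 0.31 CPM. Awat2, a wax synthase of sebocytes, stood at 1.08 CPM in imBAT and 0.70 CPM in sham and was not called (adjusted p = 0.201). Elovl3 and Fa2h were not called either (adjusted p = 0.701 and 0.691). The part of gland tissue in the Scd3 result was not tested.

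Scd4, the form known from mouse heart, was the least abundant of the stearoyl-CoA desaturases. It stood at 20.4, 10.2, 56.7 and 4.84 CPM in imBAT replicates 1 to 4 and at 1.81, 3.11 and 2.15 CPM in sham replicates 1 to 3. The groups did not overlap, though replicate 4 lay close to the highest sham library. Scd4 rose 9.73-fold, or 3.28 ± 0.80 on the log2 scale (SE, edgeR adjusted p = 0.012), and by 2.27 without imBAT replicate 3. The call was lost with no filter on low counts (adjusted p = 0.073, range over alternatives 0.000481 to 0.073).

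The 4 Scd genes form a cluster of 204611 bases on chromosome 19, in the order Scd3, Scd2, Scd4 and Scd1, with Scd1 alone on the minus strand. Their coding sequences are alike, with identities of 82.3% for Scd2 and Scd4 up to 90.4% for Scd1 and Scd3, and the longest run shared by that last pair is 185 bases. In the annotated transcripts, 2.66% of the windows of 100 bases in Scd1 also occur in a transcript of another gene, as do 0.896% in Scd2, 2.54% in Scd3 and 0.53% in Scd4, while no such window of Fads1, Fads2, Fads3, Fads6 or Degs1 does. With windows of 50 bases the shares were 4.66% in Scd1, 4.01% in Scd2, 6.66% in Scd3 and 6.32% in Scd4. At that length they were 0.161% in Fads2, 0.137% in Fads3 and 0.45% in Degs1. Neither the read length nor how reads that match several places were counted is given in the sources used here. The low counts of Scd3 and Scd4 are therefore uncertain, by an amount that depends on read length. Scd3 counts equalled 0.341 to 0.602% of the Scd1 counts in imBAT libraries and 1.03 to 1.16% in sham libraries. Scd4 counts equalled 0.0491 to 0.143% of Scd1 counts in imBAT libraries and 0.552 to 0.769% in sham libraries. Gm6951, an unprocessed pseudogene that shares windows of 50 bases with all 4 genes, had 563, 1129, 1682 and 163 counts in imBAT replicates 1 to 4 and 14, 37 and 31 in sham replicates 1 to 3. The part of Scd1 reads in the counts of Scd3, Scd4 and Gm6951 was not tested. Scd3 also overlaps the antisense gene Gm50323, which had 4 to 20 counts in imBAT libraries and 7 to 27 in sham libraries.

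The make-up of the Scd counts differed between the groups, with no overlap between their libraries. Scd1 held 98.3, 98.1, 97.3 and 95.7% of the counts of the 4 genes in imBAT replicates 1 to 4 and 71.1, 74.7 and 69.4% in sham replicates 1 to 3. Scd2 held 1.25 to 3.59% in imBAT libraries and 24.0 to 29.3% in sham libraries. On the log2 scale Scd1 exceeded Scd2 by 5.67 ± 0.72 in imBAT (SD, n = 4) and by 1.42 ± 0.20 in sham (SD, n = 3), a difference of 4.26 (exact two-sided permutation test, p = 0.0571). This is the smallest p that 4 libraries against 3 can give, so no such test can pass 0.05, and the ratio is free of library scaling.

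**Figure D2:**
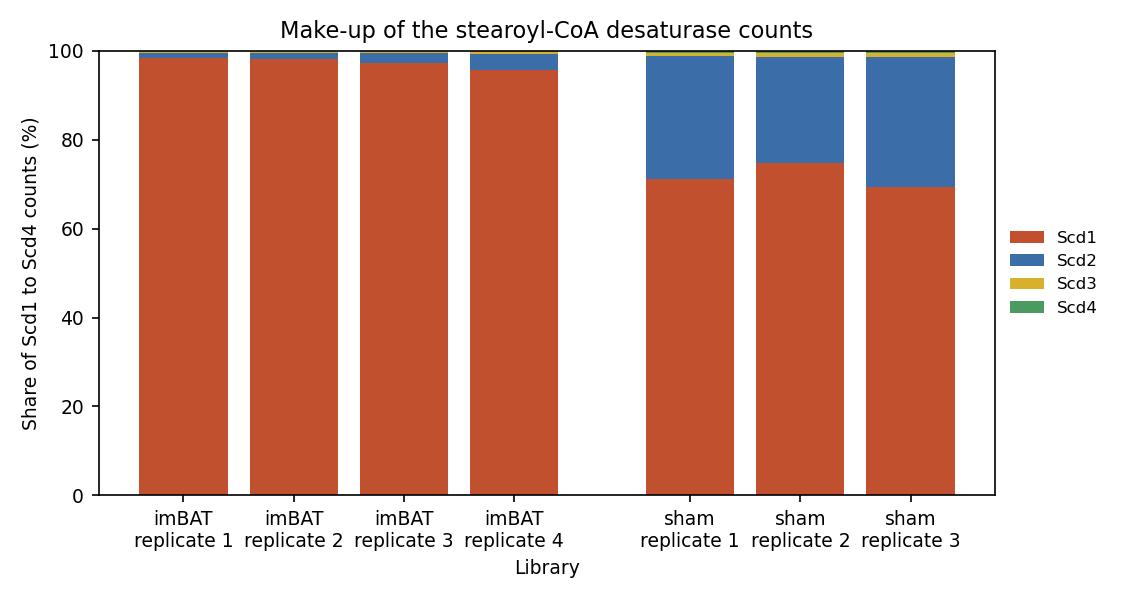
Stacked bars of the share of Scd1, Scd2, Scd3 and Scd4 in their summed counts, in percent, for each of the 4 imBAT and 3 sham libraries. Scd1 fills 95.7 to 98.3% of the bars of imBAT and 69.4 to 74.7% of those of sham, with Scd2 making up most of the rest.

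Among the front-end desaturases, Fads2, the delta-6 enzyme that opens the conversion of linoleic and alpha-linolenic acid, moved little. It stood at 47.5, 54.8, 77.2 and 42.0 CPM in imBAT replicates 1 to 4 and at 42.4, 29.3 and 28.4 CPM in sham replicates 1 to 3. The groups met, with imBAT replicate 4 just below sham replicate 1. Fads2 rose 1.66-fold, or 0.73 ± 0.23 on the log2 scale (SE, edgeR adjusted p = 0.0319), with a 95% interval of 0.21 to 1.26. The call was lost without imBAT replicate 3 (0.48, adjusted p = 0.0575), without sham replicate 2 or 3 (adjusted p = 0.109 and 0.107) and with upper-quartile scaling (0.50, adjusted p = 0.0825).

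Fads1, the delta-5 enzyme that acts after Fads2 and gives arachidonic and eicosapentaenoic acid, rose more than Fads2. It stood at 145, 117, 239 and 154 CPM in imBAT replicates 1 to 4 and at 69.3, 46.4 and 53.9 CPM in sham replicates 1 to 3. No library of imBAT came down to the sham range. Fads1 rose 2.90-fold, or 1.53 ± 0.25 on the log2 scale (SE, edgeR adjusted p = 0.00272). The log2 ratio of Fads1 to Fads2 counts averaged 1.55 ± 0.33 in imBAT (SD, n = 4) and 0.77 ± 0.14 in sham (SD, n = 3), with no overlap between the groups (difference 0.79, exact two-sided permutation p = 0.0571, the smallest possible).

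Fads3, which acts on sphingoid bases, had the smallest p of the family and the fifth smallest of all genes tested. It stood at 235, 210, 338 and 212 CPM in imBAT replicates 1 to 4 and at 30.4, 25.2 and 30.9 CPM in sham replicates 1 to 3. The lowest imBAT library was far above the highest sham library, and the spread within imBAT was narrow, with a coefficient of variation of 24.3% against 78.9% for Scd1. Fads3 rose 8.63-fold, or 3.11 ± 0.20 on the log2 scale (SE, edgeR adjusted p = 0.000558), with a 95% interval of 2.65 to 3.57 and values of 2.87 to 3.19 over the 15 alternatives. The median of the 10 adipocyte markers was also 3.11.

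Fads3 and Fads2 are neighbours that differ in response. Their ends lie 2654 bases apart on chromosome 19, with Fads3 on the plus strand at 10041569 to 10060110 and Fads2 on the minus strand at 10062765 to 10101746, and Fads1 follows at 10182888 to 10196877 on the plus strand (GRCm38). The log2 ratio of Fads3 to Fads2 counts was 1.94 to 2.33 in imBAT libraries and -0.48 to 0.12 in sham libraries. Its mean differed by 2.37 (exact two-sided permutation p = 0.0571, the smallest possible), so Fads3 held fewer or about as many counts as Fads2 in sham and over 3 times as many in every imBAT library. The coding identity of this pair is 69.9%, with a longest shared run of 54 bases. Of their transcript windows of 50 bases, 0.161% in Fads2 and 0.137% in Fads3 were shared, and none of 75 bases.

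Promoters before the RefSeq start (GRCm38.p6) are shown for Fads3 and Scd3, picked because they are among the strongest changes. The Fads3 window lies outside annotated exons, and that of Scd3 does so but for 19 bases. Degs1, with 29 bases in exons and no detectable change, is not shown. Capitals mark matches to the NF-Y core CCAAT on either strand, read 5′ to 3′ on the gene's own strand. The Fads3 window is chr19:10041298-10041547 on the plus strand and the Scd3 window, ended before the first annotated exon, is chr19:44203038-44203268 on the plus strand.
Fads3: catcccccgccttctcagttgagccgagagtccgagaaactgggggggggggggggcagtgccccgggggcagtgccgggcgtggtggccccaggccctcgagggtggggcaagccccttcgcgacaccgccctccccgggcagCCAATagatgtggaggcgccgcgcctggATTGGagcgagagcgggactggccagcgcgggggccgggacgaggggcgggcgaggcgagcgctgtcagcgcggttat
Scd3: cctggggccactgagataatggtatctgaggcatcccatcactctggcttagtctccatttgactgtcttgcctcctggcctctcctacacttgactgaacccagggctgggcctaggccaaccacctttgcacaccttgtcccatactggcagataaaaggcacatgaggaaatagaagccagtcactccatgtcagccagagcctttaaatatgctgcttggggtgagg

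The Fads3 window has a GC content of 74.4% and holds CCAAT in both orientations, 106 and 78 bases before the start. The Scd3 window has a GC content of 52.8%. In windows of 250 bases the sterol regulatory element core TCACNCCAC, the NF-Y core CCAAT and the E-box CACGTG, each searched on both strands, were looked for in the 6 members with a RefSeq promoter, which are Scd3, Scd4, Fads2, Fads3, Fads6 and Degs1. The first was found in none of them, CCAAT in Fads3 alone, and CACGTG in Degs1 alone, 43 bases before its start. Of the 250 bases searched, 243 in Fads2, 234 in Scd4, 101 in Fads6, 29 in Degs1 and 19 in Scd3 lie in exons of the GENCODE annotation, so a window without a match is largely exon sequence for Fads2 and Scd4. Over 32851 promoter windows of that length, 1.05% held the first, 33.8% the second and 6.02% the third, and none of the matches overlapped another. Scd1, Scd2 and Fads1 were not examined for motifs.

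Fads6, a desaturase-domain gene, was low in both groups and shifted evenly. It stood at 8.94, 10.5, 12.2 and 12.2 CPM in imBAT replicates 1 to 4 and at 6.59, 5.48 and 5.90 CPM in sham replicates 1 to 3. The groups did not overlap, and the spread was small on both sides. Fads6 rose 1.83-fold, or 0.87 ± 0.17 on the log2 scale (SE, edgeR adjusted p = 0.00466). Fads6 lies on the minus strand of chromosome 11 at 115279622 to 115297663 (GRCm38).

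Degs1, the dihydroceramide desaturase that makes ceramide, was the member with no detectable change. It stood at 84.2, 69.4, 89.2 and 66.1 CPM in imBAT replicates 1 to 4 and at 76.6, 75.4 and 79.2 CPM in sham replicates 1 to 3. The sham libraries fell inside the imBAT range. The log2 fold change was 0.00 ± 0.12 (SE, edgeR adjusted p = 0.984), with a 95% interval of -0.27 to 0.28. Upper-quartile scaling, which moved the median of all genes to -0.25, gave -0.24 (adjusted p = 0.101), the largest shift over the alternatives. Degs1 lies on the minus strand of chromosome 1 at 182275772 to 182282804 (GRCm38).

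**Figure D3:**
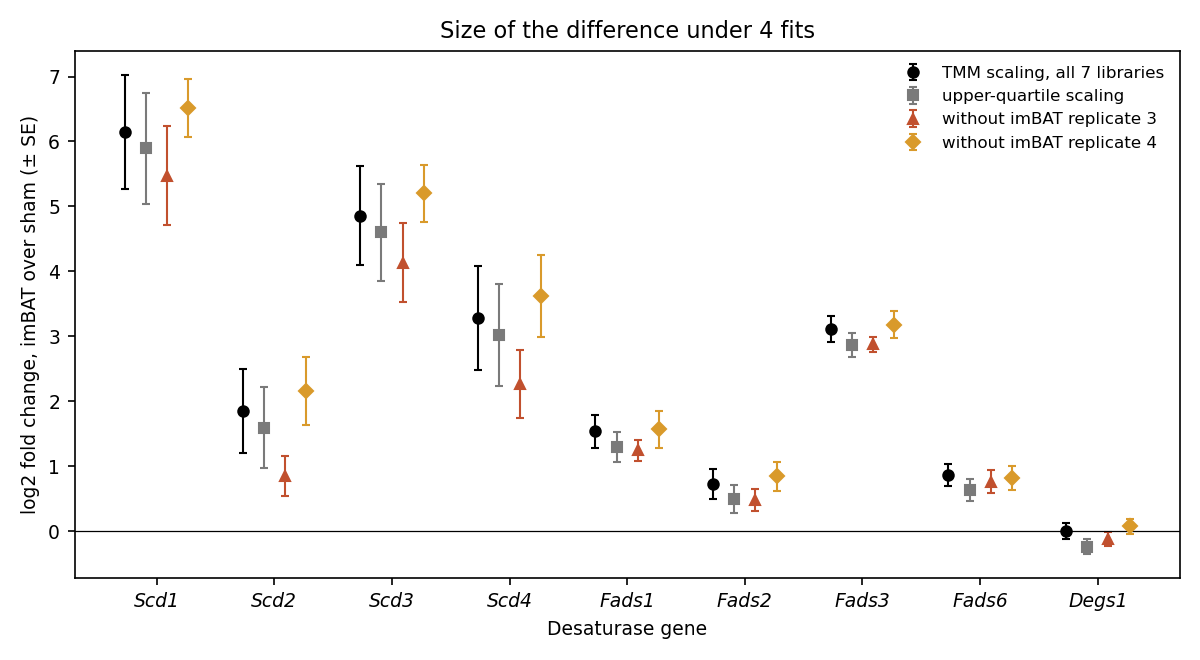
Log2 fold change of imBAT over sham with its standard error for each gene, from the fit with all 7 libraries and TMM scaling, the fit with upper-quartile scaling, and the fits without imBAT replicate 3 or 4. Leaving out replicate 3 lowered the Scd genes, with Scd2 at 0.85 in place of 1.85, and Fads3 stayed between 2.87 and 3.18 in the 4 fits.

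Levels per kilobase of annotated exon allow the genes to be set against each other. In imBAT Scd1 led with 4938 ± 3897 CPM per kb (SD, n = 4), in all 4 libraries above Scd2 at 83.1 ± 81.4 CPM per kb. Fads3 followed at 65.6 ± 15.97 CPM per kb, and was above Scd2 in 3 of the 4 libraries, so this pair did not differ beyond its spread. Fads1, Scd3 and Degs1 lay together at 34.1 ± 10.95, 30.3 ± 24.6 and 29.8 ± 4.3 CPM per kb, with overlapping libraries. Fads2 at 16.8 ± 4.7, Scd4 at 6.11 ± 6.20 and Fads6 at 1.65 ± 0.24 CPM per kb closed the order, each overlapping the next in range. Fads2 was above Scd4 within all 4 libraries, and Scd4 above Fads6 within 3 of them.

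In sham the order was different. Scd1 was still first at 69.5 ± 13.5 CPM per kb (SD, n = 3), and Degs1 was second at 29.7 ± 0.7 CPM per kb, above Scd2 at 23.1 ± 1.3 CPM per kb in every library. Fads1 at 11.8 ± 2.4 and Fads2 at 10.1 ± 2.4 CPM per kb overlapped in range, with Fads1 above Fads2 within each of the 3 libraries. Fads3 at 7.60 ± 0.82 CPM per kb was below both, where in imBAT it was above both in every library. Scd3, Fads6 and Scd4 were lowest at 1.04 ± 0.14, 0.90 ± 0.08 and 0.63 ± 0.18 CPM per kb, and neighbours in this order overlapped in range. Scd3 was above Fads6 within each of the 3 libraries, and Fads6 above Scd4 within 2 of them.

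A single imBAT library ranked first for the whole family. Replicate 3 was the highest of the 4 imBAT libraries for all 9 genes, where 28.8% of all genes tested had their highest imBAT level there. Replicate 4 was the lowest for 6 of the 9, namely the 4 Scd genes, Fads2 and Degs1, against 21.3% of all genes tested. Replicate 3 also had the highest summed adipocyte markers, at 31329 CPM, and the lowest T cell sum, at 136 CPM. Replicate 4 had 24038 CPM of adipocyte markers, above the 13592 CPM of replicate 2, although its Scd1 level was below that of replicate 2. The order of the imBAT libraries for Scd1 differed from that for the summed adipocyte markers only in replicates 2 and 4.

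Set against the mean log2 CPM of the 10 adipocyte markers in the same library, the members differed in sign and size. Fads3 stood at -2.50 ± 0.25 in imBAT and -2.18 ± 0.34 in sham (SD, n = 4 and 3), a difference of -0.32 (exact two-sided permutation p = 0.286, adjusted over the 9 members p = 0.343). Scd1 stood at 3.88, 4.48, 4.69 and 1.38 in imBAT replicates 1 to 4 and at 1.28, 2.18 and 0.65 in sham replicates 1 to 3, so that 3 imBAT libraries were above all sham libraries and replicate 4 was within their range (difference 2.24, exact permutation p = 0.114, adjusted p = 0.171). Scd3 and Scd4 differed by 0.99 and -0.68 with overlapping groups (exact permutation p = 0.343 for both).

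The other 5 members were lower relative to adipocyte markers in every imBAT library than in any sham library. Degs1 differed by -3.42, Fads2 by -2.69, Fads6 by -2.55, Scd2 by -2.02 and Fads1 by -1.90 on this scale (exact two-sided permutation p = 0.0571 for each, the smallest possible, adjusted p = 0.103). Of these, Scd2, Fads1, Fads2 and Fads6 had risen in CPM, by less than the marker mean. These 5 differences kept their sign with Adipoq or Plin1 alone as the marker and without any single library, though Scd2 overlapped against Adipoq alone (exact permutation p = 0.114). Adipoq and Plin1 rose by 3.10 and 3.13 in log2 terms, more than any of the 5 members, so the kept sign adds little.

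**Figure D4:**
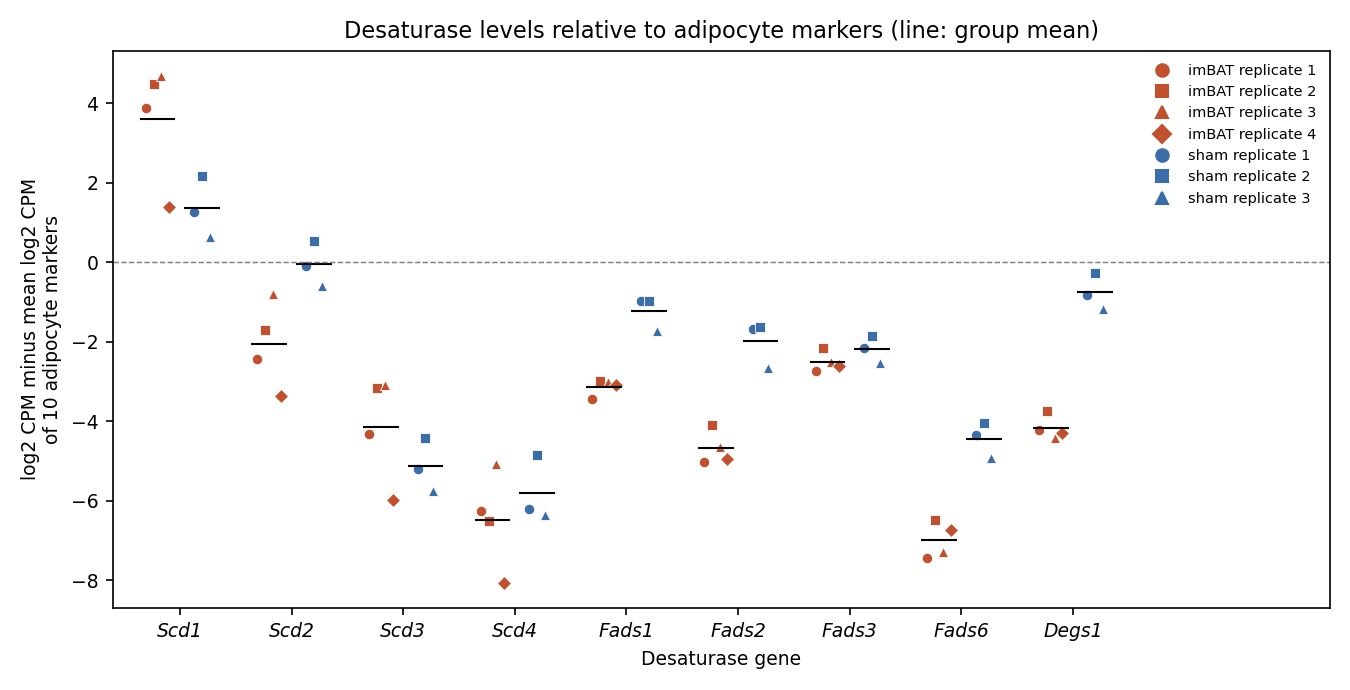
Log2 CPM of each gene minus the mean log2 CPM of 10 adipocyte markers in the same library, with imBAT left and red, sham right and blue, and a line at the group mean. Fads3 lies near -2.50 in imBAT and -2.18 in sham, Degs1 lies near -4.17 in imBAT and -0.76 in sham, and Scd1 is above 0 in all 7 libraries.

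The counts of the lists that follow stand beside the 24.3% of all genes tested that were higher in imBAT, the 19.3% that were lower, the 43.5% called in either direction and the median log2 fold change of -0.01. Of 6 tested genes of the electron supply 3 rose and none fell, with a median of 0.82, and the share called in either direction was near that over all genes. Cyb5r3, the main reductase of cytochrome b5, rose by 1.17 ± 0.17 (SE) to 177 ± 36.9 CPM in imBAT, against 78.6 ± 6.2 CPM in sham (edgeR adjusted p = 0.00166). Cyb5a, the microsomal cytochrome b5, rose by 1.09 ± 0.25 (adjusted p = 0.00949), and Cyb5b, the form of the mitochondrial outer membrane, rose by 1.45 ± 0.44 (adjusted p = 0.0271). For Cyb5b imBAT replicate 3 held 473 CPM and the remaining imBAT libraries 122 to 197 CPM, and without replicate 3 the rise was 0.81. Cyb5b was not called when any 1 sham replicate was left out or with no filter on low counts (adjusted p up to 0.119).

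Of 16 regulators of desaturase genes 10 rose and none fell, with a median of 0.90, beside 24.3% higher over all genes tested. Cebpa, an adipocyte transcription factor, rose by 2.84 ± 0.26 (SE, edgeR adjusted p = 0.000816) to 770 ± 208 CPM in imBAT, against 108 ± 27.3 CPM in sham. Srebf1 rose by 1.72 ± 0.16 (adjusted p = 0.000816) to 557 ± 105 CPM in imBAT, against 169 ± 16.5 CPM in sham. Pparg, the master regulator of adipocytes, rose by 2.79 ± 0.30 (adjusted p = 0.000937). Srebf2, the paralogue of Srebf1 that drives sterol synthesis, stood at 215 CPM in imBAT and 234 CPM in sham as group means and was not called (adjusted p = 0.443).

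Next came the pathways that feed the desaturases or use their products, again beside 24.3% higher and 19.3% lower over all genes tested. All 9 tested genes of fatty acid synthesis rose, with a median of 3.03, and 12 tested genes of elongation held 9 that rose and none that fell, with a median of 1.27. Thrsp, a lipogenic nuclear protein, rose by 5.15 ± 0.71 (SE, edgeR adjusted p = 0.00162, and 4.17 without imBAT replicate 3), the citrate carrier Slc25a1 by 3.03 ± 0.57 (adjusted p = 0.00431, and 2.20 without that library), and Mcat, of mitochondrial fatty acid synthesis, by 0.66 ± 0.12 (adjusted p = 0.00333). In elongation the acyl-CoA dehydratases Hacd1, Hacd2 and Hacd4 rose by 2.25 ± 0.34, 2.15 ± 0.26 and 1.89 ± 0.27 (adjusted p = 0.00201, 0.00112 and 0.00181). Only 5 elongation genes were called without sham replicate 2 or 3, and 5 synthesis genes with no filter on low counts.

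Peroxisomes finish docosahexaenoic acid by chain shortening, and 8 of 11 tested genes of that route rose with none falling, at a median of 1.12, beside 24.3% higher over all genes tested. The transporters Abcd2 and Abcd3 rose by 3.18 ± 0.41 and 1.12 ± 0.16 (SE, edgeR adjusted p = 0.00134 and 0.00177). Of 9 tested genes that esterify or release polyunsaturated fatty acids 5 rose and none fell, with a median of 0.78, and this share called was near the 43.5% over all genes tested. Pla2g6, a calcium-independent phospholipase, rose by 1.19 ± 0.20 (adjusted p = 0.00303), the acyl-CoA synthetase Acsl3 by 0.90 ± 0.18 (adjusted p = 0.00517) and the acyltransferase Mboat2 by 1.71 ± 0.35 (adjusted p = 0.00587).

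In ceramide synthesis, the pathway of Degs1, 6 of 14 tested genes rose and 2 fell, with a median of 0.29. Over all genes tested 24.3% were higher and 19.3% lower, and the share of the list called in either direction was near the 43.5% over all genes. Ormdl3, a brake on serine palmitoyltransferase, rose by 1.78 ± 0.23 (SE, edgeR adjusted p = 0.00127), Kdsr, which makes dihydrosphingosine, by 0.88 ± 0.16 (adjusted p = 0.00372) and the ceramide synthase Cers2 by 0.68 ± 0.12 (adjusted p = 0.00341). Degs2, the paralogue of Degs1 that also makes phytoceramide, had 3.42 to 8.82 CPM in imBAT libraries and 12.5 to 15.7 CPM in sham libraries. Degs2 fell by 1.14 in log2 terms (SE 0.29, adjusted p = 0.0129), and leaving out sham replicate 3 ended the call (adjusted p = 0.0509). Ormdl1 fell by 0.54 (SE 0.19, adjusted p = 0.0465) and was not called in 8 of its 15 alternatives (adjusted p up to 0.119). The number of ceramide genes called was 8, and 5 without sham replicate 3. The adipocyte markers rose, with a median of 3.11, and the T cell and B cell markers fell, with medians of -1.51 and -1.81, beside all of these lists.

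**Figure D5:**
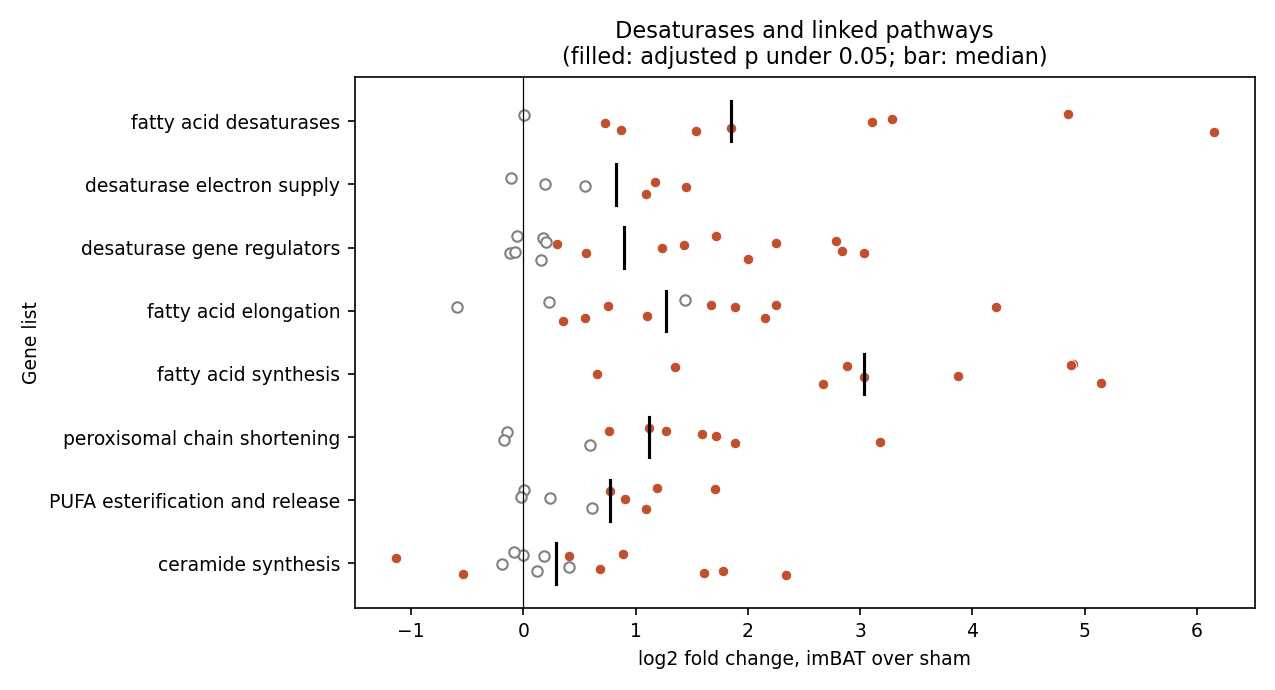
Log2 fold change of imBAT over sham for the 9 desaturase genes and for the tested genes of 7 linked lists, with filled points at an adjusted p under 0.05, open points otherwise, and a bar at the list median. Fatty acid synthesis has the highest median, 3.03, the desaturases 1.85 and ceramide synthesis 0.29.

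The genes whose profile over the 7 libraries was nearest to that of Scd1 were found by the root mean square difference of log2 CPM after each gene's own mean was taken off, among tested genes with a mean of at least 1 CPM, predicted genes left out. They were Prr32 (0.28), albumin Alb (0.62), Lctl (0.64), Scd3 (0.66) and the natriuretic peptide clearance receptor Npr3 (0.75). Prr32 had no count in any sham library, so its place rests on the prior count of 2, and with a prior count of 0.5 the other 4 were shared and Prr32 was not. Nearest to Fads2 were Tuba1b (0.08), Mapt (0.09), Mir670hg (0.12), Tufm (0.12) and mt-Co1 (0.13), a set that was the same under both prior counts. Mapt, Tufm and mt-Co1 rose (edgeR adjusted p = 0.0337, 0.0236 and 0.0127), and Tuba1b and Mir670hg were not called (adjusted p = 0.0626 and 0.131).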

How the data were processed

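Raw read counts per gene were deposited by the authors in a single table. Alignment used STAR 2.7.9a and the Ensembl release 101 primary assembly, per the labels' protocols. Salmon 1.5.2, Subread, featureCounts 2.0.3, limma and edgeR are named with no role, per the submitters' processing notes. The strand setting is not given in the sources used here. The table has 55774 rows, of which 287 repeats of an identifier, equal in every count, were removed. Positions, exon lengths and transcripts came from GENCODE M21 (GRCm38).

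The test was the quasi-likelihood F test of edgeR 4.0.16 (R 4.3.3, robust fit, TMM scaling, default filter with a minimum count of 10, group alone as model, 5 residual degrees of freedom). Its standard error is the log2 fold change over the square root of F. Ratios used counts plus 0.5, and levels relative to adipocyte markers used log2 CPM with a prior count of 2, with exact permutation tests in SciPy 1.17.1. Alternatives were RLE and upper-quartile scaling, other filters, DESeq2 1.42.0, limma 3.58.1 voom, a block, an adjusted p under 0.10 and leaving out each library. Coding sequences were aligned with Biopython 1.88. The fits were first tested on simulated data, in which far fewer genes changed than were called here. There 12 of 142 calls were false with edgeR, 66 of 229 with DESeq2 and 8 of 120 with voom. With edgeR 49% of the genes given a log2 change of 1 were recovered, and 81% of those given 2. No pair of libraries of a group was alike within sampling noise (chi-square per degree of freedom 20.4 to 216.1).

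The members and the lists were chosen with earlier results of these data known. Named from each pathway list were the 3 tested genes with the smallest p and any called against its list, and the 5 genes nearest in profile to Scd1 and to Fads2. Srebf2, Awat2, Plin2, Soat1, Mc5r, Mogat1, Krt79, Elovl3, Fa2h, Pecam1, Gm6951 and Gm50323 were added after their values were seen. One listed gene, Pla2g16, was not matched by symbol. One gene that this rule names is not reported here. The numbers 28, 29 and 31 open titles in both groups, but the labels do not say what they mark.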

Additional observations from a re-analysis of the deposited data

Results flagged for a closer look

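In 4 of 54 sets of imBAT values, a single library stood apart from the other 3 by more of the range than Dixon's 95% critical value of 0.829 for 4 samples. Chance flags about 1 in 20 such sets. For Scd2 the gap was 0.834 of the range, with imBAT replicate 3 at 1111 CPM and the others at 127 to 291 CPM. For Thrsp it was 0.923, with 2404 CPM in replicate 3 and 434 to 586 CPM in the others. For Slc25a1 it was 0.873, with 1032 CPM in replicate 3 and 210 to 315 CPM in the others. For Cebpa it was 0.869, with 1078 CPM in replicate 3 and 629 to 688 CPM in the others. The library was imBAT replicate 3 in all 4 cases.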

How the results depend on the processing

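Of 738 values under an alternative, 699 kept their direction and their side of the threshold, or stayed within 1.5 times for counts. Some of these values are the main fit read at an adjusted p under 0.10, where a called gene cannot lose its call. Scd2 was the least stable member: it was not called with upper-quartile scaling (log2 fold change 1.60), no filter (1.85), DESeq2 (1.85) or voom (1.11), nor with the block (1.44), and ranged from 0.85 to 2.16 when 1 library was left out. Scd4 was not called with no filter (3.28), nor Fads2 with upper-quartile scaling (0.50, and 0.48 to 0.94 without 1 library). Degs1, never called, took values below 0 with upper-quartile scaling (-0.24), the filter of 1 CPM in 3 libraries (-0.0165) and voom (-0.039), and without imBAT replicate 1 (-0.04), imBAT replicate 3 (-0.12) or sham replicate 2 (-0.01), with a range of -0.12 to 0.0723 without 1 library. The cause was not tested. Among 345 values of named pathway genes 13 lost the call and none changed sign. Genes called over all genes numbered 11491, and 7519 to 11403 without 1 library, lowest without sham replicate 2. Upper-quartile scaling put 36.6% of calls higher in imBAT, in place of 55.8%. The fatty acid synthesis list had 5 called with no filter, and without 1 library elongation had 5 to 9 and ceramide synthesis 5 to 8.

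The number that opens each title was fitted as a replicate block. Deviations of the same-numbered libraries correlated at -0.01, 0.11 and 0.10, within a range of -0.14 to 0.11 over all pairs of an imBAT and a sham library. The pairs numbered 29 and 31 had the highest values of all. Whether the numbers pair the libraries is therefore not settled, and the main model used group alone. The block lowered the SE of Fads1 from 0.25 to 0.11 and of Fads2 from 0.23 to 0.10, and raised it for Scd1, Scd3, Scd4 and Fads6. With the block 10853 genes and 7 desaturase genes were called, and Fads3 rose by 3.16. Depth limits only the lowest genes here, since every member had at least 82 counts in each library.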
